A study of Rattus norvegicus with 2 samples.

Results

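The heat shock proteins and their DnaJ partners were examined in rat oligodendrocyte precursor cells (OPCs), from which the myelinating glia of the brain and spinal cord arise. Members were the rows of the deposited gene table whose symbol begins with Hspa, Hspb, Hspd, Hspe, Hsph, Hsp90, Dnaja, Dnajb or Dnajc in the standard nomenclature, leaving out Hspbp1 and Hspbap1. This rule found 68 of the 17455 genes in the table, all of them protein-coding in RefSeq. The cells were labelled wild type and had been transfected with a Lonza kit, either with the vector (the library labelled control, called vector here) or with Slit1, whose secreted product binds Robo receptors (the library called Slit1). There was 1 library in each group, so no difference given here has a replicate check and no test was possible. Strain, age of the animals and time from transfection to harvest are not stated in the labels.

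Chaperones bind unfolded proteins and help them to fold, to cross membranes or to be degraded. HSP70 proteins work in cycles of ATP hydrolysis that are started by DnaJ proteins (J proteins), which bring clients to them, and are reset by exchange factors such as the HSP110 proteins; HSP90 acts later, on nearly folded clients such as kinases and receptors. Each compartment has its own set: Hspa8 and Hsp90ab1 serve the cytosol, Hspa5 (BiP) and Hsp90b1 (GRP94) the endoplasmic reticulum (ER), and Hspa9 (mortalin) with the Hspd1-Hspe1 chaperonin the mitochondrion. The heat shock factor HSF1 drives the cytosolic and some mitochondrial genes, while the unfolded protein response drives ER genes. In oligodendrocytes, which make large amounts of membrane protein for myelin, the ER machinery has been studied as a sensitive point.

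Estimated counts summed to 18817462 for vector and 18998770 for Slit1. Levels are given in TPM, the transcripts of a gene per 1000000 after correction for gene length. The transfected gene, Slit1, measured 1.70 TPM in vector and 229.7 TPM in the Slit1 library. All 5 OPC markers (Pdgfra, Cspg4, Olig1, Olig2 and Sox10) were above 1 TPM in both libraries and summed to 1023 and 1134 TPM; Sox10, a factor of the whole oligodendrocyte lineage, measured 71.4 and 218.0 TPM, and the ratios of the other 4 ranged from 0.940 to 1.04. The oligodendrocyte markers Mbp, Mag, Cnp and Cldn11 summed to 681 TPM in vector against 3027 TPM with Slit1. The 4 astrocyte markers (Gfap, Aqp4, Aldh1l1 and Slc1a2) summed to 5351 and 6741 TPM; Gfap, the astrocyte intermediate filament, measured 4694 and 6130 TPM, and the glutamate transporter gene Slc1a2 215.4 and 94.1 TPM. The 4 neuronal markers (Rbfox3, Snap25, Syt1 and Nefl) summed to 18.3 and 13.4 TPM, and the fibroblast and mural markers measured in the table (Col1a1, Dcn and Pdgfrb) to 10.9 and 11.9 TPM. Microglial markers (Aif1, Csf1r and Itgam) summed to 0.29 and 0.56 TPM, and endothelial markers (Pecam1, Cldn5 and Kdr) to 0.58 and 1.16 TPM. In such bulk libraries fewer cells of a type and less RNA per cell cannot be told apart, and the part of these other cells in the chaperone differences was not tested.

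The chaperones differed little between the libraries, and most of the differences were towards lower levels with Slit1. The 68 members summed to 9544 TPM in vector against 9014 TPM with Slit1. Hspa8, the constitutive cytosolic HSP70, took 22.2% of this sum in vector and 24.8% in Slit1, and Hsp90ab1, the constitutive HSP90, took 18.4% and 18.3%. A total of 61 members had a mean of at least 1 TPM over both libraries and were compared with the 13175 genes at that level. Differences were taken as log2(TPM + 1) in Slit1 minus vector, a scale that understates the change of low genes, and folds are TPM ratios with an exact 95% interval for the ratio of 2 Poisson counts. Such intervals cover counting error only. On the log2 scale 1 member, Hspa4l, was at least 1.5-fold lower, against a background of 4.83% of all genes, and 0 were at least 1.5-fold higher, against 3.72%.

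**Figure D1:**
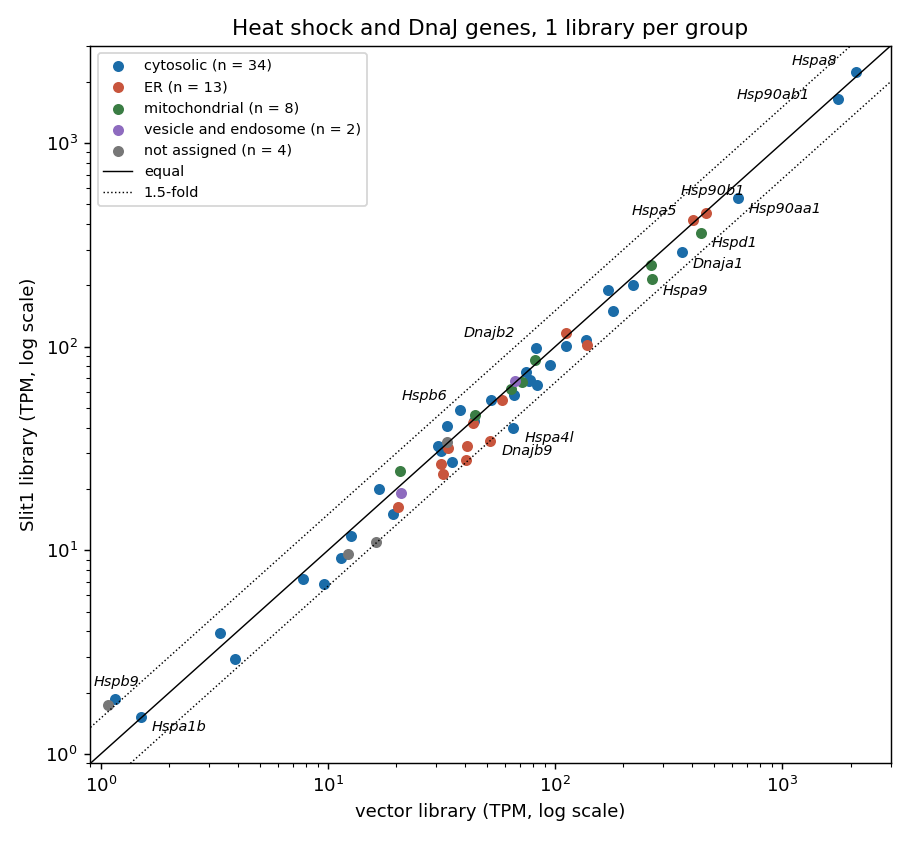
Level of each of the 61 members at 1 TPM or more in the vector library (x axis, TPM, log scale) and in the Slit1 library (y axis, TPM, log scale), 1 point per gene, coloured by compartment; the solid line marks equal levels and the dotted lines 1.5-fold. The points follow the line of equality up to Hspa8 at 2122 and 2235 TPM, and Hspa4l has the lowest ratio.

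Small differences lay more often on the lower side. Of the 61 members, 41 (background 56% of all genes) had a log2 difference below 0. The median was -0.10, beside -0.05 over all genes. The counting interval lay wholly below 1 for 29 members (background 33.5%) and wholly above 1 for 6 (background 22.3%), and it held 1 for 26. These shares depend on depth, since abundant genes have narrower intervals: the median count was 967 for members and 623 for all genes. With the median gene set to 0 the numbers were 24 below and 9 above, beside 28.3% and 27.1% of all genes, so that the share of higher among these calls was 17.1% in TPM and 27.3% after centring, beside 39.9% and 48.9% over all genes.

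Cytosolic chaperones were sorted first by family. The 3 HSP110 genes, whose products exchange the nucleotide on HSP70, were each lower in the Slit1 library. Hspa4l measured 65.5 TPM in vector against 39.9 TPM with Slit1 (1.64-fold lower, interval 1.53 to 1.76). Hspa4 measured 180.0 and 149.2 TPM (1.21-fold lower, interval 1.16 to 1.25), and Hsph1 measured 76.4 and 67.7 TPM (1.13-fold lower, interval 1.06 to 1.20). The order of the 3 levels was the same in both libraries, with Hspa4 above Hsph1 and Hspa4l lowest. For Hspa4l the ratio was 0.609 in TPM, 0.628 in FPKM, 0.659 in counts per 1000000 (CPM) and 0.665 in CPM with edgeR TMM factors; with the last of these its log2 difference fell short of 1.5-fold.

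Among the cytosolic HSP70 genes the dominant one was slightly higher and the minor ones were level or lower. Hspa8 measured 2122 TPM in vector against 2235 TPM with Slit1 (ratio 1.05, interval 1.04 to 1.07). Hspa2, an HSP70 best known from the testis, measured 83.5 and 65.0 TPM (1.28-fold lower, interval 1.20 to 1.38). Hspa14, a partner of ribosome-bound Dnajc2, measured 43.9 and 43.1 TPM, with an interval that held 1 and a ratio just above 1 under every other scaling. Hspa12a, a distant relative of HSP70, measured 3.91 and 2.93 TPM (1.33-fold lower, interval 1.07 to 1.66). The stress-induced gene listed as Hspa1b was almost silent in both libraries, at 1.5 and 1.52 TPM from 51.7 and 54.6 counts. Its identifier carries the symbol Hspa1a in the RefSeq table for GRCr8, where a near-identical neighbour is called Hspa1b; if reads were divided between them the value is uncertain, and the neighbour was not analysed here.

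The cytosolic HSP90 genes were both lower. Hsp90ab1, the constitutive form, measured 1755 TPM in vector against 1649 TPM with Slit1 (1.06-fold lower, interval 1.05 to 1.08). Hsp90aa1, the stress-inducible form, measured 637 and 537 TPM (1.19-fold lower, interval 1.16 to 1.21). RefSeq lists 23 genes or pseudogenes named after Hsp90ab1, 16 after Hsp90aa1 and 33 after Hspa8, of which 1 (named after Hsp90aa1) is in the deposited table, so their values are uncertain where reads were shared with such copies.

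Small heat shock proteins, which hold unfolded proteins without using ATP, were divided. Hspb1 (HSP27), the most abundant of them, measured 136.6 TPM in vector against 107.6 TPM with Slit1 (1.27-fold lower, interval 1.16 to 1.40). Hspb6 (HSP20) was higher, with 38.0 and 48.6 TPM (ratio 1.28, interval 1.12 to 1.46), and so was Hspb8 (HSP22), which works with Bag3 in clearing misfolded proteins, with 33.5 and 40.6 TPM (ratio 1.21, interval 1.07 to 1.37). Cryab, the alpha-B crystallin of the same family whose symbol falls outside the rule, measured 28.4 and 33.7 TPM (ratio 1.19, interval 0.993 to 1.43). Hspb11 measured 30.4 and 32.6 TPM; it is called Ift25 in the GRCr8 table, a subunit of the intraflagellar transport machinery. Hspb9 measured 1.16 and 1.86 TPM from 6 and 10 counts, too few to show a difference (interval of the ratio 0.528 to 5.37).

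The cytosolic J proteins of classes A and B, the general partners of HSP70, lay mostly below equality. Dnaja1, the most abundant J protein gene in the vector library, measured 362.8 TPM there against 291.8 TPM with Slit1 (1.24-fold lower, interval 1.19 to 1.296), and Dnaja2 measured 220.1 and 201.3 TPM (1.09-fold lower, interval 1.05 to 1.14). Dnaja4 was 1.14-fold lower (65.8 against 57.9 TPM, interval 1.04 to 1.24). With TMM factors the intervals of Dnaja2 and Dnaja4 held 1. The stress-inducible Dnajb1 measured 52.4 and 55.0 TPM (ratio 1.05, interval 0.961 to 1.15), while its relatives Dnajb4 and Dnajb5 were 1.29-fold (interval 1.15 to 1.44) and 1.13-fold (interval 1.05 to 1.21) lower. Dnajb6, a suppressor of polyglutamine aggregation, measured 94.7 and 80.9 TPM (1.17-fold lower, interval 1.08 to 1.27). Dnajb2, a J protein with ubiquitin-binding motifs that is rich in neurons, went the other way, with 82.4 and 98.9 TPM (ratio 1.20, interval 1.12 to 1.28). RefSeq names 10 copies of Dnajb6 and 4 of Dnaja1, 1 of them (named after Dnajb6) in the table.

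Class C J proteins of the cytosol and nucleus have specialised clients. Dnajc7, which carries tetratricopeptide repeats and binds both HSP70 and HSP90, measured 171.5 TPM in vector against 190.6 TPM with Slit1 (ratio 1.11, interval 1.05 to 1.18). Dnajc27, a Rab-like GTPase with a J domain, was 1.28-fold lower (19.3 against 15.0 TPM, interval 1.15 to 1.43). Dnajc12, a partner of the aromatic amino acid hydroxylases, was 1.40-fold lower but rested on 91.5 and 68 counts (interval 1.01 to 1.94, holding 1 under the other scalings). The nuclear and ribosome-bound members were mixed. The histone chaperone Dnajc9 measured 74.8 and 75.01 TPM, ribosome-bound Dnajc2 31.4 and 30.8 TPM (just above 1 under every other scaling), and the splicing-associated Dnajc8 111.3 and 100.5 TPM (1.11-fold lower, interval 1.02 to 1.20, holding 1 under the other scalings). Dnajc17 rested on 141.9 and 182.8 counts (TPM ratio 1.19, interval 0.953 to 1.496); its interval lay above 1 in CPM (ratio 1.28, interval 1.02 to 1.601) and with TMM factors. RefSeq names 4 copies of Dnajc17, 2 of them among the measured genes, so its value is uncertain where reads were shared. Dnajc21 measured 12.6 and 11.7 TPM, with an interval that held 1.

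Of the 11 cytosolic genes listed as heat-inducible, 10 were in the table and above 1 TPM: Hspa1b, Hspb1, Hspb8, Hsph1, Hsp90aa1, Dnaja1, Dnaja4, Dnajb1, Dnajb4 and Hspa4l. Their median log2 difference was -0.21, beside -0.05 over all genes. The interval lay below 1 for 7 of them and above 1 for 1, Hspb8, beside 33.5% and 22.3% of all genes. Together they summed to 1467 TPM in vector against 1226 TPM with Slit1. The 5 constitutive HSP70, HSP110 and HSP90 genes beside them (Hspa8, Hspa2, Hspa14, the HSP110 gene Hspa4, and Hsp90ab1) summed to 4185 and 4141 TPM, with a median of -0.09. The interval lay below 1 for 3 of these 5 (60%) and above 1 for 1, so intervals below 1 were not particular to the heat-inducible genes.

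Promoter windows were read from RefSeq (build GRCr8) to see which members carry the binding motif of the heat shock factors; a window of 300 bases, from 250 before to 50 after the annotated start, was listed for 55 of the 68 members. The motif of 3 units, GAANNTTCNNGAA on either strand, was found in 5 of these windows, against 0.798% of all 33469 windows. It was present in 3 of 29 cytosolic, 0 of 13 ER and 2 of 6 mitochondrial windows. The mitochondrial 2 are those of Hspd1 and Hspe1, which hold the same matched bases, so 1 stretch is counted for both genes. The heat-inducible Hsp90aa1 and Dnajb4 were among the members without a listed window. Its 2-unit parts, GAANNTTC and TTCNNGAA, which lie within it, were found in 13 and 10 member windows, against 8.59% and 8.77% of all windows. A match is a description of the letters and not evidence of binding. The stretches around the matches are shown because the genes that hold them did not move alike, with the matched bases in capitals. They lie at chr8:50080281-50080491 (plus strand, Hspa8), chr12:10427312-10427364 (plus strand, Hsph1), chr5:60638393-60638425 (plus strand, Dnaja1) and chr9:64084242-64084299 (plus strand, Hspe1).
Hspa8: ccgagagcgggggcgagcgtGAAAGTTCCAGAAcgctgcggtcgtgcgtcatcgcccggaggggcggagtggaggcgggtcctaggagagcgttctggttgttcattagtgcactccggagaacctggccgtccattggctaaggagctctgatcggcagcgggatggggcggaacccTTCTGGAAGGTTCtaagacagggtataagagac
Hsph1: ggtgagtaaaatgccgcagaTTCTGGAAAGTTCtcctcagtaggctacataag
Dnaja1: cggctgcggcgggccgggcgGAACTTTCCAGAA
Hspe1: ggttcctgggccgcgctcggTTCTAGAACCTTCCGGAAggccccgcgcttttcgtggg
Of these, Hspa8 was 1.05-fold higher in the Slit1 library, Hsph1 1.13-fold lower and Dnaja1 1.24-fold lower. The lowest cytosolic member, Hspa4l, held 1 match to TTCNNGAA and none to the longer motif in its window.

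ER chaperones ranged from near equality in TPM to 1.51-fold lower, without a clear break between them. Hsp90b1 measured 462.8 TPM in vector against 453.7 TPM with Slit1 (ratio 0.981, interval 0.955 to 1.01; above 1 under every other scaling, with intervals that hold 1). Hspa5, the main HSP70 of the ER lumen and a common readout of ER stress, measured 403.5 and 417.4 TPM (ratio 1.03, interval 1.005 to 1.07). Dnajb11 (ERdj3), its secreted and lumenal partner, measured 111.6 and 116.3 TPM (ratio 1.04, interval 0.975 to 1.11). In TPM these 3 genes were within 1.05-fold of equality, and so was Dnajb12 of the ER membrane. Under the other scalings the ratio was 1.07 to 1.08 for Hspa5 and for Dnajb11, and both intervals lay above 1.

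The other members sorted as lumenal were on the lower side in TPM, Dnajc1 with an interval that held 1. Dnajb9 (ERdj4), which acts with BiP in the disposal of misfolded proteins, measured 51.9 and 34.5 TPM (1.51-fold lower, interval 1.35 to 1.68); on the log2(TPM + 1) scale its difference, -0.58, fell just short of 1.5-fold. Hspa13 (Stch), an atypical ER HSP70 without a peptide-binding domain, measured 40.6 and 27.7 TPM (1.47-fold lower, interval 1.28 to 1.67). Dnajc10 (ERdj5), a disulfide reductase with a J domain, measured 137.6 and 101.6 TPM (1.35-fold lower, interval 1.297 to 1.41). Dnajc3 (p58IPK), an inhibitor of the kinase PERK, was 1.19-fold lower (31.5 against 26.5 TPM, interval 1.03 to 1.38, holding 1 under the other scalings). Dnajc1, a membrane protein that was sorted here with the lumenal members, measured 33.9 and 31.8 TPM with an interval that held 1.

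The J proteins sorted with the ER membrane were all on the lower side in TPM. Dnajb14 measured 32.2 and 23.7 TPM (1.36-fold lower, interval 1.28 to 1.45), Dnajc18 40.9 and 32.6 TPM (1.25-fold lower, interval 1.10 to 1.44) and Dnajc16 20.4 and 16.4 TPM (1.24-fold lower, interval 1.08 to 1.43). Dnajb12, the closest relative of Dnajb14 and its partner in ER-associated degradation, measured 43.4 and 42.0 TPM, with an interval that held 1 and a ratio just above 1 with TMM factors and after centring. Dnajc14 measured 58.3 and 54.5 TPM and overlaps Tmem198b in the annotation. In all, 36 of the 68 members overlap another annotated gene, among them Hspb6, Dnajc7 and Dnajc17, and not every overlap is named here.

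**Figure D2:**
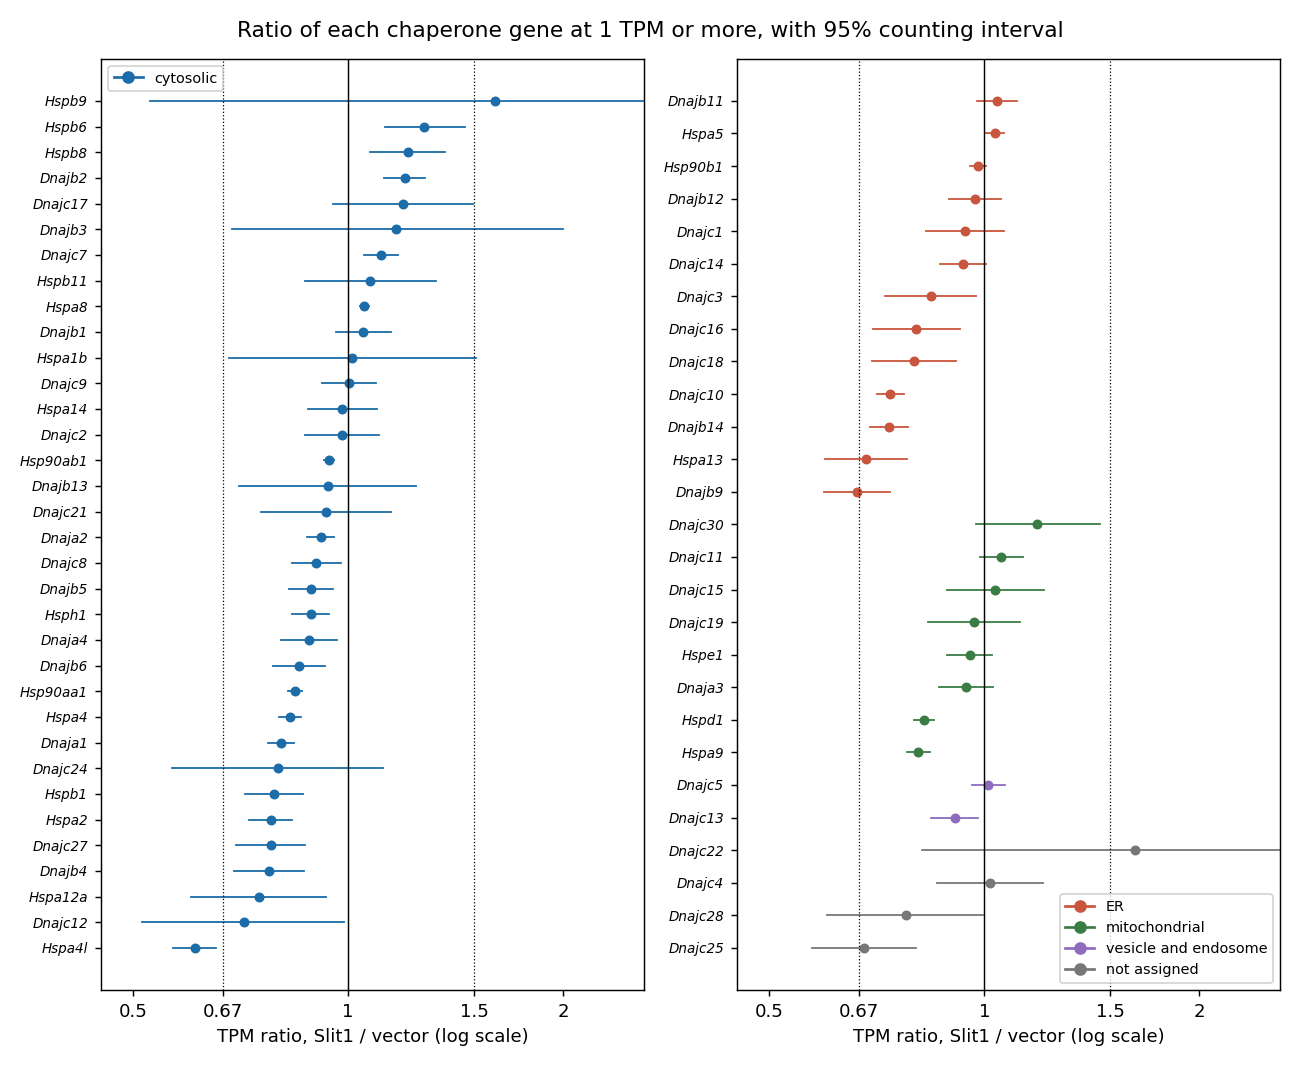
TPM ratio of Slit1 to vector (x axis, log scale) for each member at 1 TPM or more, sorted within its compartment; points are the ratios, bars the 95% counting intervals (cut at the axis limits), the solid line marks 1 and the dotted lines 1.5-fold in either direction. Hspa4l is at the low end of the cytosolic genes. ER genes run from Hspa5, Dnajb11, Hsp90b1 and Dnajb12 near 1 down to Dnajb9. The bars of Dnajc1 and Dnajc14 hold 1, while those of genes such as Dnajb9, Hspa13, Dnajb14 and Dnajc10 lie wholly below it.

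The ER stress response element, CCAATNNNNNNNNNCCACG on either strand, was searched in the same windows. It includes the CCAAT box, which alone was found in 37.5% of all windows. The full element was found in 0.0657% of all windows and in 3 member windows, each of a lumenal ER gene: Hspa5 (chr3:38452953-38453011, plus strand), Hsp90b1 (chr7:23012327-23012489, minus strand, holding 2 copies) and Dnajc3 (chr15:102432514-102432572, plus strand). They are shown because the most abundant ER chaperone genes are among the holders, with the element in capitals.
Hspa5: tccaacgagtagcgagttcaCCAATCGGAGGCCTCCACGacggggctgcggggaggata
Hsp90b1: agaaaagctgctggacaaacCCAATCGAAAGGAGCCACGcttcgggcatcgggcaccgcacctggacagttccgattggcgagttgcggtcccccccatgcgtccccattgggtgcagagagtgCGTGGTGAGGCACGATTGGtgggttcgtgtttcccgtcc
Dnajc3: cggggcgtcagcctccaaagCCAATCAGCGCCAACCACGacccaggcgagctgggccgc
The windows of Dnajb9, Hspa13, Dnajc10 and Dnajb11 did not hold these letters.

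Among the mitochondrial chaperones only Hspa9 and Hspd1 had intervals below 1. The matrix HSP70 gene Hspa9, which pulls proteins through the inner membrane and folds them, measured 266.6 TPM in vector against 215.5 TPM with Slit1 (1.24-fold lower, interval 1.19 to 1.28). Hspd1 (HSP60), the barrel of the matrix chaperonin, measured 439.1 and 361.8 TPM (1.21-fold lower, interval 1.18 to 1.25). Hspe1 (HSP10), its lid, measured 264.5 and 252.3 TPM (1.05-fold lower, interval 0.974 to 1.13). The annotated starts of this pair lie 290 bases apart on opposite strands of chromosome 9, so the matches to the heat shock motif shown for Hspe1 lie in the window of Hspd1 as well. RefSeq names 22 copies of Hspd1, 1 of them in the table, and 1 of Hspe1.

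For 0 of the 5 mitochondrial J proteins did the interval lie below 1, in TPM or under another scaling. Dnajc11, a protein of the outer membrane linked to cristae, measured 81.4 and 86.0 TPM, Dnaja3 (Tid1), the matrix partner of Hspa9, 71.4 and 67.3 TPM, and Dnajc30 20.7 and 24.6 TPM. The import motor subunits Dnajc19 and Dnajc15 measured 64.1 and 62.0 TPM and 44.4 and 46.0 TPM. In TPM the intervals of these 5 genes held 1. Under each of the other scalings the intervals of Dnajc11 (CPM ratio 1.10, interval 1.03 to 1.18) and Dnajc30 (CPM ratio 1.22, interval 1.002 to 1.496) lay above 1, and the directions of Dnajc19 and Dnajc15 were opposite in CPM, with or without TMM factors. Dnajc19 overlaps Fxr1 in the annotation.

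Few vesicle proteins were measured, and 4 members were given no compartment. Dnajc5, the cysteine string protein of secretory vesicles, measured 67.0 TPM in vector against 67.9 TPM with Slit1; its interval lay above 1 with TMM factors only. Dnajc13 (RME-8) of endosomes measured 21.0 and 19.1 TPM (1.10-fold lower, interval 1.02 to 1.19, holding 1 under the other scalings). Of the members without a compartment, Dnajc25 was 1.47-fold lower (16.3 against 11.04 TPM, interval 1.25 to 1.74) and Dnajc28, which overlaps Son, 1.29-fold lower (interval 1.004 to 1.66, holding 1 under the other scalings). Dnajc4 measured 33.3 and 33.9 TPM. Dnajc22 measured 1.07 and 1.74 TPM from 15 and 24 counts, with an interval (0.819 to 3.33) that held 1.

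The 7 members under 1 TPM were Hspa1l, Hspa12b, Hspb2, Hspb7, Dnajb7, Dnajc6 and Dnajc5g. None exceeded 0.97 TPM in either library, the level of Dnajc6, the auxilin of clathrin uncoating, in vector. Dnajc5g had 1 count in vector and 0 in Slit1, where a count of 0 allows up to 3.

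The compartments were then set side by side. The median log2 difference was -0.11 over 34 cytosolic members, -0.24 over 13 ER members and -0.06 over 8 mitochondrial members, beside -0.05 over all genes. The interval lay below 1 for 17 and above 1 for 5 of the cytosolic members, below 1 for 7 and above 1 for 1 of the ER members, and below 1 for 2 and above 1 for 0 of the mitochondrial members, beside 33.5% below and 22.3% above over all genes. As shares, 50% of the cytosolic, 53.8% of the ER and 25% of the mitochondrial members were below. These counts are in TPM and change with the scaling. Under every other scaling the intervals of the mitochondrial genes Dnajc11 and Dnajc30 and of the ER gene Dnajb11 lay above 1. Those of the ER gene Dnajc3 and of the cytosolic members Dnajc8 and Dnajc12 then held 1. With only the members sorted as lumenal, Dnajc1 among them, the ER median was -0.16, a value that depends on this sorting. Without nuclear and ribosome-bound members the cytosolic median was -0.17, so between these narrower sets the ER median was not the lower. Members of a compartment are not replicates, and the difference between compartments was not tested.

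Summed over genes, the main chaperones and the J proteins of each compartment gave another order. The 12 cytosolic HSP70, HSP110 and HSP90 genes summed to 4970 TPM in vector against 4791 TPM with Slit1 (ratio 0.964), and the 3 ER genes of these families to 907 and 899 TPM (ratio 0.991). Mitochondrial Hspa9 alone had a ratio of 0.808. The ER sum was above 1 under every other scaling, at most 1.04. The DnaJ sums were 1461 and 1353 TPM for 20 cytosolic genes (ratio 0.926), 562 and 480 TPM for 10 ER genes (ratio 0.854), and 282 and 286 TPM for 5 mitochondrial genes (ratio 1.01). J protein transcripts were set against the HSP70, HSP110 and HSP90 sum of the same compartment. In the ER they went from 61.9% in vector to 53.4% in Slit1, and in the cytosol from 29.4% to 28.2%. In mitochondria, where Hspa9 is the only gene in the denominator, the corresponding values were 105.7% and 132.6%. The 10 ER DnaJ genes include the 5 sorted with the ER membrane, which summed to 195 TPM in vector and 169 TPM in Slit1. The ER percentages are therefore not those of lumenal partners alone. The sums also cover unlike families, since only the cytosolic sum includes HSP110 genes. The ER HSP110 Hyou1, the mitochondrial HSP90 Trap1 and the ER J protein Sec63 fall outside the symbol rule and are in none of them.

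**Figure D3:**
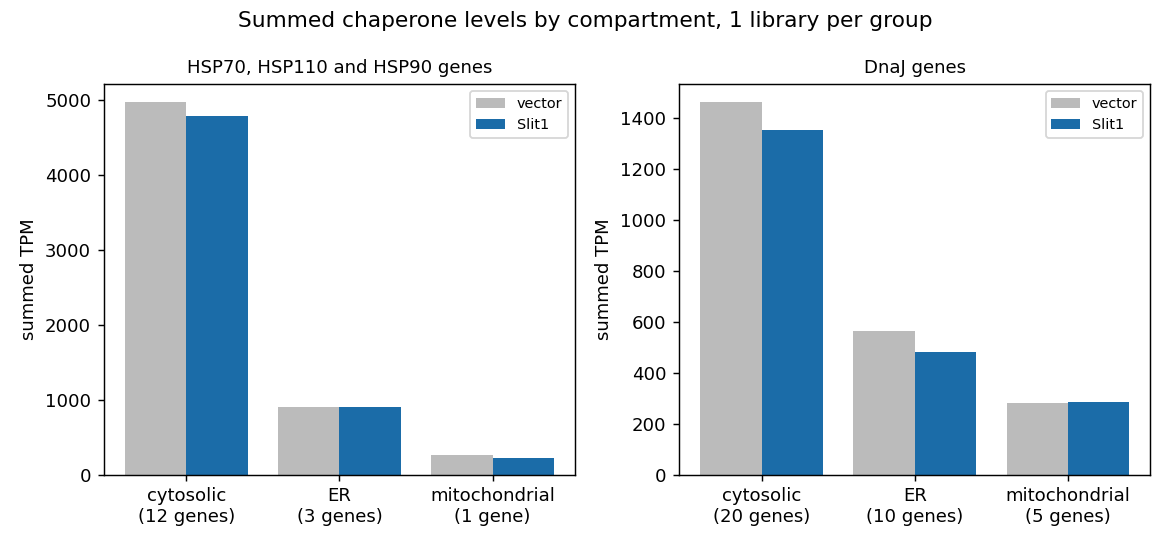
Summed TPM (y axes, from 0) of the HSP70, HSP110 and HSP90 genes (left) and of the DnaJ genes (right) in each compartment, with grey bars for the vector library and blue bars for the Slit1 library, 1 library per group and no error bars. In the ER the main chaperones are at 907 and 899 TPM while the DnaJ sum goes from 562 to 480 TPM; in mitochondria the DnaJ sum is at 282 and 286 TPM and Hspa9 is lower.

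Helpers of these chaperones were measured from lists of related genes. Of 31 co-chaperones and heat shock factors above 1 TPM, 1 was at least 1.5-fold lower, Bag4, and 0 higher, with a median of 0.06. Under every other scaling 0 were lower by that amount, and in CPM, with or without TMM factors, Ahsa2, an HSP90 co-chaperone gene with counts of 703 and 1089, was higher. The interval lay above 1 for 12 (38.7%) and below 1 for 11 (35.5%) of them. Bag4 and Bag2, exchange and release factors of HSP70, measured 8.59 and 5.34 TPM (1.61-fold lower, interval 1.25 to 2.08) and 15.2 and 10.8 TPM (1.40-fold lower, interval 1.13 to 1.75). Chordc1, a stress-induced HSP90 partner, was 1.28-fold lower. The heat shock factor gene Hsf1 measured 33.1 and 37.6 TPM (ratio 1.14, interval 1.02 to 1.27) and Hsf2 48.1 and 43.7 TPM (ratio 0.908, interval 0.832 to 0.990).

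Other folding machines were read in the same way. Of 14 genes of the TRiC chaperonin and prefoldin, which fold actin and tubulin, 0 differed by 1.5-fold, and the median was -0.09; the interval lay below 1 for 8 (57.1%) and above 1 for 3. Its lowest genes were the prefoldin subunits Pfdn4 (ratio 0.685, interval 0.548 to 0.856) and Pfdn2 (ratio 0.779) and the cofactor Pdcl3 (ratio 0.726, interval 0.654 to 0.806). The TRiC subunits ranged from Cct6a (ratio 0.862) to Cct5 (ratio 1.13). Of 30 genes of ER folding and the unfolded protein response, 1 was at least 1.5-fold lower, Trib3, from 59 and 34 counts, and the median was -0.03 in TPM and just above 0 under the other scalings; intervals lay below 1 for 11 and above 1 for 10. Edem1, a lectin of ER-associated degradation, and the stress sensor gene Atf6 were lower, with ratios of 0.672 (interval 0.634 to 0.712) and 0.755 (interval 0.710 to 0.804), and Derl3 was higher with a ratio of 1.34 (interval 1.11 to 1.61). Sec63, an ER membrane J protein of the translocon whose symbol falls outside the rule, measured 97.3 and 74.6 TPM (ratio 0.767, interval 0.731 to 0.804), and Hyou1, the ER HSP110, 79.4 and 92.3 TPM (ratio 1.16, interval 1.11 to 1.22). Of 16 mitochondrial chaperone and protease genes 0 differed by 1.5-fold; their median was -0.03 in TPM and above 0 with TMM factors, in FPKM and after centring, and intervals lay below 1 for 5 and above 1 for 4. Trap1, the mitochondrial HSP90, measured 109.4 and 107.7 TPM, and Grpel1, the exchange factor of Hspa9, 104.2 and 121.9 TPM (ratio 1.17, interval 1.07 to 1.28). Yme1l1, an inner membrane protease, had a ratio of 0.775 (interval 0.726 to 0.827).

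**Figure D4:**
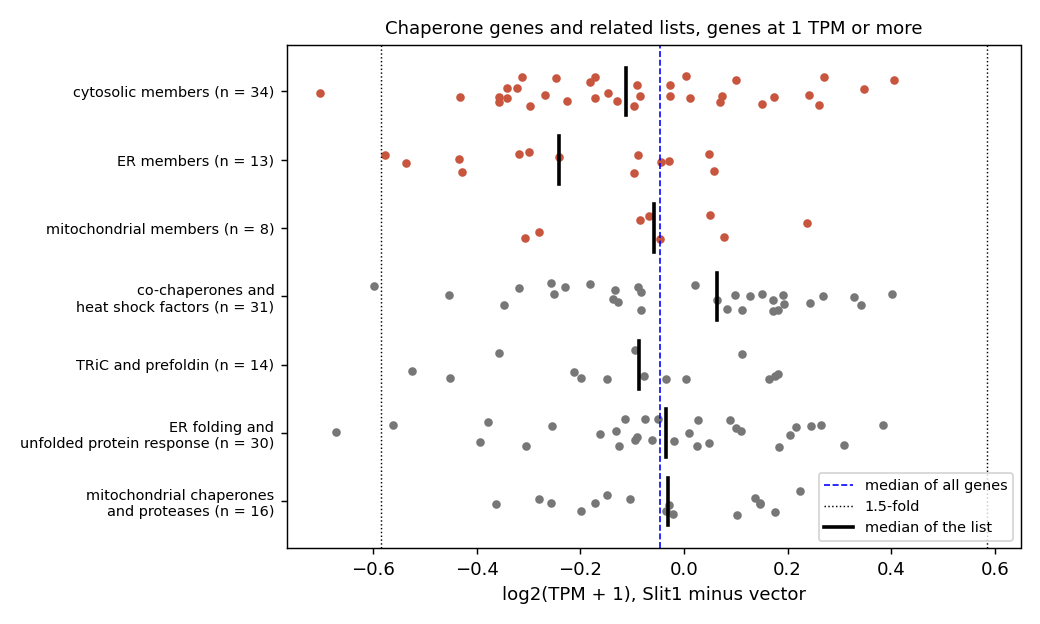
Difference of log2(TPM + 1), Slit1 minus vector (x axis), for each gene at 1 TPM or more in the 3 main compartments of members (red) and in 4 lists of related genes (grey), 1 point per gene with vertical scatter only for legibility; black bars are list medians, the dashed line is the median of all genes (-0.05) and the dotted lines are 1.5-fold. With the compartments as drawn, the ER members have the lowest median, -0.24, while the related ER list lies at -0.03. This order changes with narrower compartments.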

How the data were processed

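RNA of rat OPCs was sequenced in 2 libraries, 1 per group; per the submitters' processing notes the build was mRatBN7.2. The aligner, counter, annotation and handling of strand were not given in the sources used here. Per the file headers the authors deposited FPKM, TPM and read counts; the deposited counts are estimated counts, need not be whole, and were rounded for intervals and for TMM factors. The deposited TPM were scaled by the authors to 1000000 per library and served as the main unit; the deposited FPKM served as an alternative. No column belonged to another sample. With 1 library per group no test was run.

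Members and lists were chosen with earlier results of these data known. Compartments and related lists were set by hand. A marker gene and a gene of the co-chaperone list are not reported here; the marker was also left out of its sum. Values were to be given for members 1.5-fold different in TPM, the 4 most abundant and the 2 highest and 2 lowest of each compartment, heat-inducible and HSP90 members, and up to 4 genes per related list; other values were added after they were seen. All 68 members matched RefSeq (GRCr8) by identifier. Intervals (exact Clopper-Pearson, 95%) came from scipy 1.17.1, TMM factors from edgeR 4.0.16. The calculation was checked on simulated data.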

Additional observations from a re-analysis of the deposited data

How the results depend on the processing

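Alternatives were pseudocounts of 0.1 and 5, no floor and a floor of 5 TPM, a limit of 2-fold, centring on the median gene, CPM, CPM with edgeR TMM factors, FPKM and narrower compartments; those for interval counts, for single genes, related lists and CPM sums were chosen after seeing the data. The medians of all members, of the 3 compartments and of the heat-inducible genes stayed below 0 under each of them. Some came close to 0: after centring the median was -0.049 over all members and -0.011 over mitochondrial members. The number at least 1.5-fold higher was 2 with a pseudocount of 0.1. The number at least 1.5-fold lower was 2 with a pseudocount of 0.1, 0 with TMM factors and 0 at the limit of 2-fold. Intervals lay above 1 for 10 members in CPM and 11 with TMM factors, where 24 and 22 lay below; over all genes 26.4% and 27.7% lay above and 28.4% and 27.1% below. The ratio of the ER sum was 1.03 in CPM, 1.04 with TMM factors, 1.02 in FPKM and 1.02 after centring. The cytosolic sum had ratios of 0.981, 0.989, 0.994 and 0.996 in the same order, and Hspa9 0.840 with TMM factors. For related lists, the number of co-chaperones at least 1.5-fold lower was 0 under every other scaling, and the number higher was 1 in CPM and 1 with TMM factors. The number of ER folding genes lower was 0 in CPM, with TMM factors and in FPKM. The median of this ER list was 0.0098 in CPM, 0.022 with TMM factors, 0.0097 in FPKM and 0.012 after centring, and that of mitochondrial helpers was 0.0019 with TMM factors, 0.011 in FPKM and 0.015 after centring. The cause of these shifts was not tested. Of the members whose interval excluded 1, 0 changed direction under the other scalings. No paired analysis was possible because each group has 1 library. Depth limits the 7 members under 1 TPM and others with few counts, among them Hspb9, Dnajc22, Dnajb3, Hspa1b and Dnajc24. Of the 68 members, 54 had at least 100 counts in both libraries.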
